A study of Mus musculus with 18 samples.

Results

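The Wnt genes of cultured sensory neurons were followed through a time course of axon injury. The 60 protein-coding genes were taken by symbol from the GENCODE vM21 annotation, and cover the Wnt ligands, the Fzd receptors, the co-receptors Lrp5 and Lrp6, the alternative receptors Ror1, Ror2 and Ryk, the secreted Dkk and Sfrp inhibitors, the R-spondins with their Lgr receptors and the ubiquitin ligases Znrf3 and Rnf43, the cytoplasmic Dvl and Axin proteins, and the nuclear Lef1 and Tcf7 family. They are 60 of 47643 genes listed in each library. The rule itself uses gene names and no measured value. Sfrp3 carries the symbol Frzb and stands with the other pathway genes further on.

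RNA was sequenced from spot cultures of dorsal root ganglia of CD-1 mouse embryos at day 13.5 (eDRG), grown with nerve growth factor and with FDU, an inhibitor of dividing cells. Uninjured control cultures were collected at day 7 in vitro. The injured cultures, grown the same way, had their axons cut with a blade and were collected 1, 3, 8, 16 or 24 h post injury (HPI). Each of the 6 groups has 3 libraries, 18 in all, and no genetic modification is given for any group. Since no uninjured culture was collected at the later hours, injury and elapsed time in culture cannot be told apart. In these bulk samples, a change in the share of a cell type and a change in RNA per cell cannot be told apart either.

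A Wnt ligand is acylated, carried to the cell surface and bound by a Fzd receptor together with Lrp5 or Lrp6. Dvl then recruits Axin away from the complex that destroys beta-catenin, and beta-catenin acts in the nucleus with Lef1 and the Tcf7 family. R-spondins bind Lgr receptors and remove Znrf3 and Rnf43, which otherwise take Fzd receptors off the membrane. Ryk, Ror2 and several Fzd receptors also carry beta-catenin-independent signals that guide axons.

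The libraries held 9478891 to 23082327 counts on genes. Levels are given as normalized CPM, which are counts set to a common library total after TMM scaling, and as RPKM where genes are compared, which also divides by the exon length in kilobases. A gene was tested when it exceeded 1 CPM in at least 3 libraries, which held for 13771 genes. Summed over 8 marker genes, sensory neuron RNA lay at 10110 to 13060 normalized CPM in every library, so the cultures carry their labelled cell type's markers. The 10 markers of glia summed to 2.29 to 15.5 and the 7 markers of fibroblasts to 2.22 to 21.7 normalized CPM. Endothelial markers summed to 0.868 to 2.01 and cell division markers to 2.29 to 6.06 normalized CPM. The share of counts on residual rRNA and mitochondrial genes was 15.7% to 24.8%, and 16 HPI replicate 1, with 24.6%, had the highest share of its group. That library also had 5.11% of its counts on the entry for reads that fit several genes, against 2.93% to 3.57% in the other 17. The 3.57% belonged to 16 HPI replicate 2. Of 5 tested residual rRNA genes, 2 passed higher at 16 HPI against control. Leaving out 16 HPI replicate 1 kept all 4 calls at 16 HPI against control, and calls lost without it are given beside them.

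The promoters of ligands and of called genes show what sequence stands before them. The windows are the 250 bases before the RefSeq start on GRCm38.p6, printed 5' to 3' on the gene's strand, and the ones shown overlap no GENCODE exon. In the first 3, capitals mark a TCF/LEF motif (CTTTGAA or CTTTGAT) or an AP-1 motif (TGANTCA), each searched on both strands. The Wnt11 match lies on the other strand and so reads ATCAAAG. In the last 2, of genes called below, neither motif was found and capitals mark CpG.
Wnt5b, chr6:119449387-119449636, minus strand: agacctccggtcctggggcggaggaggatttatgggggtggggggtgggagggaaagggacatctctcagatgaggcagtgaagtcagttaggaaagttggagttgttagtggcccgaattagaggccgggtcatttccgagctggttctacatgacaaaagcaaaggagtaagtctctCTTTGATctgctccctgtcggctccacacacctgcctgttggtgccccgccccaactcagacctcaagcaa
Wnt5b, chr6:119544348-119544597, minus strand: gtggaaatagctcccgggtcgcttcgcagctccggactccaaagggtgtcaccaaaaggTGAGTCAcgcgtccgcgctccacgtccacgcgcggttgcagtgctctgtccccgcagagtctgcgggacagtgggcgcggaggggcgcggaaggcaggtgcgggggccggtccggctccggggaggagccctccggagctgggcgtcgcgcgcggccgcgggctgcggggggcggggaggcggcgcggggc
Wnt11, chr7:98834862-98835111, plus strand: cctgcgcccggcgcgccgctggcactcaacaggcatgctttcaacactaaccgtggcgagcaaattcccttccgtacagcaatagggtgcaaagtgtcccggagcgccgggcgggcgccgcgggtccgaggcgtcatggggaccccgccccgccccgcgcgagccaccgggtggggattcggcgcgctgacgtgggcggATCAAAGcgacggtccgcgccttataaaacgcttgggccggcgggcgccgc
Axin2, chr11:108920099-108920348, plus strand: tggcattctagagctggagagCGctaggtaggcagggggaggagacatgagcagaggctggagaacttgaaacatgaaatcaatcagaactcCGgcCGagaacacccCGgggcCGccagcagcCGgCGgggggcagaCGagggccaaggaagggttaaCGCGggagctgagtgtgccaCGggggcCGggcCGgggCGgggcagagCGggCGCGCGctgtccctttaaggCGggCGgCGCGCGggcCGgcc
Wnt16, chr6:22287977-22288226, plus strand: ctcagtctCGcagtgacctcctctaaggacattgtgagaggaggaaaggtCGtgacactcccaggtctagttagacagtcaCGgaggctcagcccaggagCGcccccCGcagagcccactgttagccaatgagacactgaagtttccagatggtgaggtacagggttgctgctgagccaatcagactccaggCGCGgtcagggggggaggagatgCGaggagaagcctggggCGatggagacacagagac
The first Wnt5b window and the Wnt11 window hold the TCF/LEF motif, at -71 and -51 from the start. The second Wnt5b window holds the AP-1 motif at -191. A further Wnt5b window (chr6:119467212-119467461) and a further Wnt11 window (chr7:98838595-98838844) held neither motif and are not printed. Of 32851 RefSeq promoters of this length, 7.48% held the TCF/LEF motif and 6.75% the AP-1 motif. RefSeq promoters were matched for 41 of the 60 Wnt genes, with 50 windows, of which 3 held the TCF/LEF motif (Dkk1, Wnt11, Wnt5b) and 3 the AP-1 motif (Dvl2, Ror2, Wnt5b). The Axin2 window had 24 CpG and that of Wnt16 had 9, against a median of 6 over all promoters (quartiles 2 and 16).

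In uninjured cultures Rspo4 and Rspo1 of the R-spondin arm and the cytoplasmic Dvl1 were the most abundant Wnt transcripts. The nuclear factors were close to the limit of detection. Of the 60 genes, 33 were tested and 27 were too low. No more than 3 counts were found in any library for 16 of them, and Rspo3 and Wnt8b had 0 counts throughout. The tested genes were 6 of 19 ligands, 9 of 10 Fzd receptors, Lrp6, Ror2 and Ryk, 5 of 8 inhibitors, 5 of 9 genes of the R-spondin arm and all 5 cytoplasmic genes.

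Rspo4, an R-spondin, had the highest level in control cultures, 71.2 ± 11.9 RPKM (SD, n = 3). Rspo1 followed with 26.6 ± 5.45 RPKM and Dvl1 with 18.1 ± 2.04 RPKM. Rspo4 stood above both by more than their spread, while the libraries of Rspo1 and Dvl1 came close to one another. Lgr4, a receptor for R-spondins, had 8.64 ± 0.131 RPKM and Dkk3, a divergent member of the Dkk family, had 7.99 ± 2.20 RPKM, which did not differ beyond their spread. Wnt11 was the most abundant ligand with 3.30 ± 0.816 RPKM, close to Ryk with 3.38 ± 0.351 RPKM. The next ligand, Wnt5a, stood at 0.676 ± 0.247 RPKM, and the other tested ligands at 0.262 to 0.451 RPKM.

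Fzd3, which is needed for axon guidance, was the most abundant Fzd receptor with 1.57 ± 0.0319 RPKM, followed within the spread by Fzd9 with 1.43 ± 0.158 RPKM. Fzd5, Fzd6 and Fzd10 lay lowest of the tested receptors, at 0.237 to 0.257 RPKM, and did not differ from one another beyond their spread. Summed over the 10 Fzd genes, the control cultures had 6.77 to 7.35 RPKM. None of the 4 nuclear genes passed the filter, and their highest count in any library was 9 for Tcf7, 8 for Tcf7l2, 3 for Tcf7l1 and 2 for Lef1. By contrast Ctnnb1, which encodes beta-catenin, had 86.4 ± 8.78 RPKM.

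**Figure D1:**
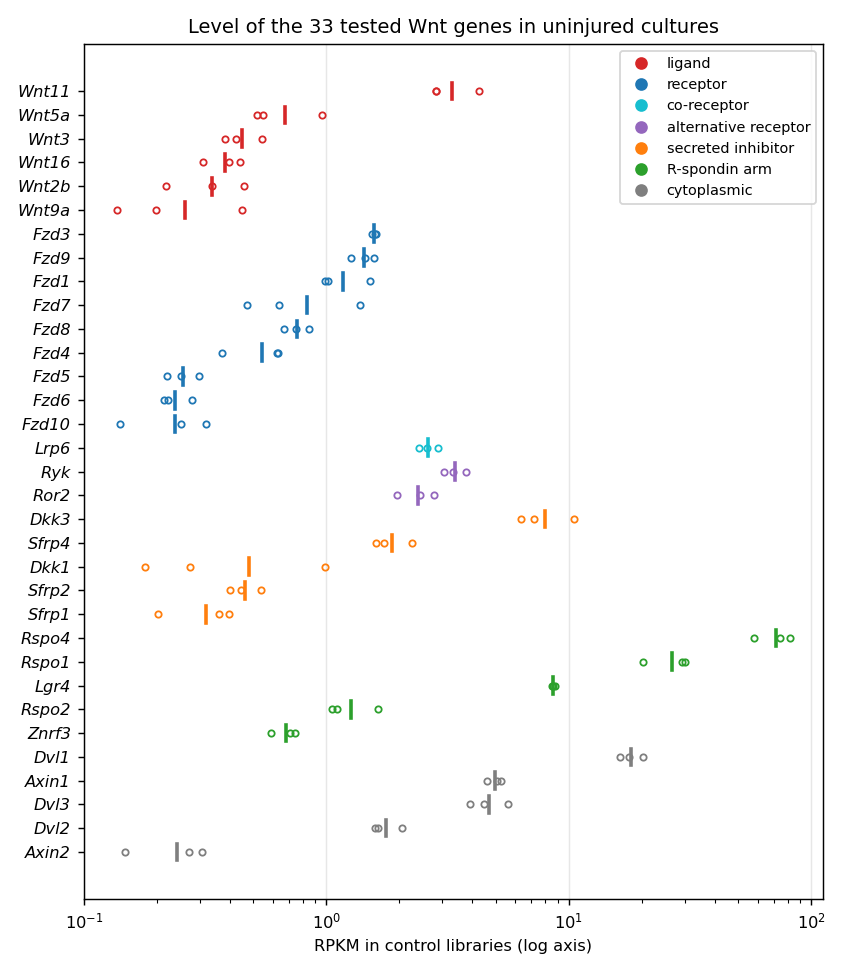
RPKM (log axis) of the 33 tested Wnt genes in the 3 control libraries, with 1 open circle per library and a bar at the mean, coloured by role. Rspo4 and Rspo1 stand highest, and the tested Fzd receptors lie between 0.237 and 1.57 RPKM.

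The plot of control levels shows how far the roles differ and how close replicates lie. Some genes differed between replicate numbers in the same direction across groups. Fzd7 averaged 4.97 normalized CPM over the 6 libraries of replicate 1, 1.69 in replicate 2 and 2.57 in replicate 3, and replicate 1 was highest in all 6 groups. Dkk1, an inhibitor that binds Lrp6, was 2.20 times as high in replicate 1 as in replicate 3. The ratio of the highest to the lowest replicate exceeded 1.5 for 8 of the 33 genes. The replicate number was a term of the tests.

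The question of the time course was which genes change after axotomy and when. Tests were made with the quasi-likelihood test of edgeR, adjusted after Benjamini and Hochberg over all 13771 genes, and a gene was called when its adjusted p was under 0.05 and its change over 2-fold. The 5 comparisons with control share the 3 control libraries. At 1 and 3 HPI none of the 33 Wnt genes was called, and none passed at any fold with edgeR, where 0.029% of all genes were called at each time and 0.276% and 0.189% passed. Without adjustment, 0 and 1 of the 33 had p under 0.05, against 12.8% and 14.5% of all genes, and the DESeq2 Wald test also called 0. Over the whole course 15 of 33 passed the test of any change, against 30.0% of all genes. The count was 6, 7 and 8 without replicate 1, 2 and 3, 4 without the replicate term, and 9 of 21 under a filter of 1 CPM in all 18 libraries. The shares of all genes in these refits are not given, so the lower counts are not a result about the Wnt genes.

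At 8 HPI 4 of 33 Wnt genes fell and none was called by edgeR or DESeq2, where 0.537% of all genes were called, 7.68% passed and 3.9% passed lower. Without adjustment 7 of the 33 had p under 0.05, against 22.0% of all genes. Fzd8 fell from 4.47, 3.98 and 5.06 normalized CPM in the control libraries to 2.78, 2.97 and 2.98 at 8 HPI. The groups did not overlap. The log2 fold change was -0.65 (SE 0.176, adjusted p = 0.0263 by edgeR's quasi-likelihood test). It did not pass without control replicate 1 (-0.69) or 3 (-0.57) or without 8 HPI replicate 1 (-0.60) or 3 (-0.65).

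The co-receptor Lrp6 had 35.5, 32.9 and 39.5 normalized CPM in control and 29.8, 27.6 and 30.5 at 8 HPI, with every injured library below every control library. It fell by 0.30 on the log2 scale (SE 0.0603, adjusted p = 0.00433, edgeR). Wnt11 fell by 0.39 (SE 0.103, adjusted p = 0.0256, edgeR), from 11.7, 17.6 and 11.7 to 6.95, 15.2 and 9.90 normalized CPM. Replicate 2 was the highest for Wnt11 in both groups, and the groups overlapped. Wnt11 did not pass without control replicate 1 (-0.31) or 3 (-0.42) or without 8 HPI replicate 1 (-0.27). Fzd7 fell by 0.75 (SE 0.194, adjusted p = 0.0206, edgeR), with overlapping groups and a decrease in all 3 replicates. It had 6.25, 2.14 and 2.89 normalized CPM in control and 4.11, 0.742 and 1.72 at 8 HPI. It did not pass without control replicate 1 (-0.69) or without 8 HPI replicate 2 (-0.65) or 3 (-0.69). These 4 did not pass without the replicate term, and Fzd8, Wnt11 and Fzd7 did not with the 2 groups fitted alone.

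**Figure D2:**
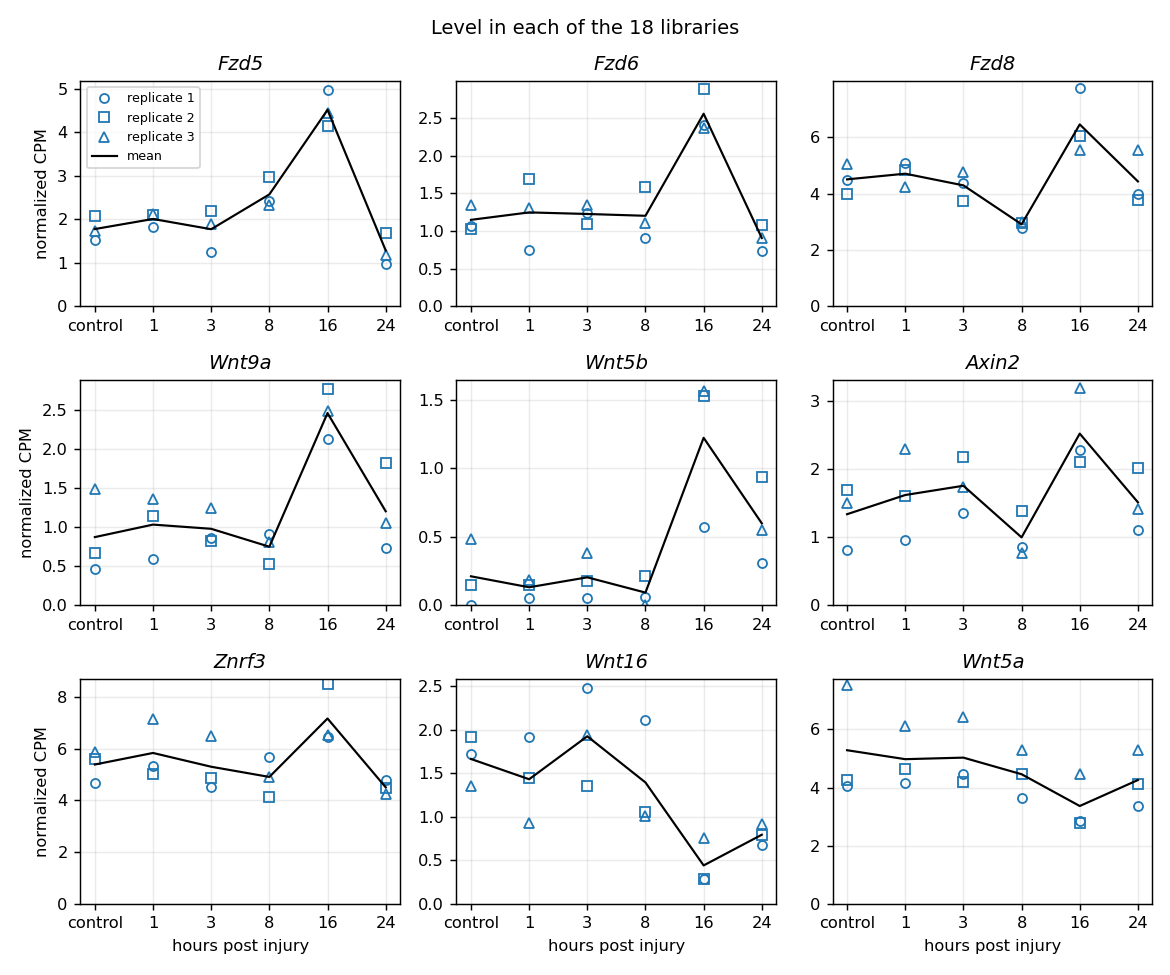
Normalized CPM of 9 Wnt genes in each of the 18 libraries over hours post injury, with 1 symbol per replicate number and a line through the group means; each vertical axis starts at 0. The means of Fzd5, Fzd6, Fzd8, Wnt9a, Wnt5b, Axin2 and Znrf3 peak at 16 HPI, where those of Wnt16 and Wnt5a are lowest.

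At 16 HPI 4 Wnt genes were called, where 1.49% of all genes were called: Fzd5, Fzd6 and Wnt9a rose, against 1.18% of all genes, and Wnt16 fell, against 0.312%. At any fold 11 of 33 passed, against 22.2% of all genes. Of these 5 were higher, against 10.7% of all genes, and 6 lower, against 11.5%. Groups did not overlap for 11 of 33, against 20.4% of all genes. The median log2 fold change of the 33 was 0.02 and that of all genes -0.00219, and the changes ran in both directions. In the plot of the 9 genes, Fzd5, Fzd6, Fzd8, Wnt9a, Wnt5b, Axin2 and Znrf3 had their highest mean at 16 HPI. Wnt16 and Wnt5a had their lowest mean there.

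Among the receptors, Fzd5 (chr1:64730558-64737751, minus strand, GRCm38) had 1.53, 2.06 and 1.73 normalized CPM in control, 2.42, 2.97 and 2.32 at 8 HPI, 4.97, 4.13 and 4.43 at 16 HPI and 0.980, 1.68 and 1.19 at 24 HPI. All 3 libraries at 16 HPI stood above all others. Fzd5 rose 2.54-fold at 16 HPI (log2 fold change 1.35, SE 0.184, adjusted p = 2.101e-05, edgeR). Reads of Fzd5 and of a transcript on the opposite strand that shares 1233 exonic bases with it cannot be told apart, since the strand setting of the counting is not given.

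Fzd6 (chr15:39006034-39038188, plus strand), a receptor that acts in planar cell polarity, had 1.07, 1.03 and 1.35 normalized CPM in control, 2.42, 2.89 and 2.38 at 16 HPI and 0.735, 1.08 and 0.914 at 24 HPI. The 16 HPI libraries lay above those of both other groups. Its log2 fold change at 16 HPI was 1.11 (SE 0.224, adjusted p = 0.00102, edgeR), and 0.96 without control replicate 2, under 2-fold. It shares 152 exonic bases with a transcript on the opposite strand.

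Fzd8 had 7.75, 6.06 and 5.56 normalized CPM at 16 HPI, above every control and every 8 HPI library. Against control its log2 fold change was 0.50 (SE 0.150, adjusted p = 0.0195, edgeR), and 0.36 (adjusted p = 0.149) without 16 HPI replicate 1. It did not pass either without control replicate 1 (0.47) or 2 (0.47) or 16 HPI replicate 2 (0.48). Fzd1 fell by 0.47 (SE 0.163, adjusted p = 0.0414, edgeR), with overlapping groups, from 4.27, 4.13 and 6.36 to 3.27, 3.11 and 4.21 normalized CPM. It passed with all libraries and without control replicate 1, but not without any of the other 5, where it lay between -0.53 and -0.29. Nor did it pass with upper-quartile factors, a filter of 10 counts summed over libraries or DESeq2. Of the other 5 tested receptors none passed at 16 HPI against control. Fzd10 had a log2 fold change of 0.69 (SE 0.316, adjusted p = 0.126, edgeR) and Fzd4 of 0.31 (SE 0.156, adjusted p = 0.172, edgeR). Fzd7 went the other way, with -0.405 (SE 0.184, adjusted p = 0.126, edgeR), lower in all 3 replicates with overlapping groups. Fzd3 and Fzd9 had 0.11 and -0.03.

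Among the ligands, Wnt9a (chr11:59306928-59333552, plus strand) had 0.457, 0.664 and 1.49 normalized CPM in control, 0.907, 0.530 and 0.808 at 8 HPI, 2.13, 2.77 and 2.48 at 16 HPI and 0.735, 1.82 and 1.05 at 24 HPI. Its lowest library at 16 HPI stood above the highest of every other group. It rose 2.72-fold at 16 HPI (log2 fold change 1.44, SE 0.306, adjusted p = 0.00155, edgeR). Without the replicate term the adjusted p was 0.0506.

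Wnt16 (chr6:22288227-22298522, plus strand) moved the other way. It had 1.73, 1.92 and 1.35 normalized CPM in control, 2.12, 1.06 and 1.01 at 8 HPI, 0.284, 0.283 and 0.756 at 16 HPI and 0.674, 0.794 and 0.914 at 24 HPI. All libraries at 16 and 24 HPI lay below all control libraries. These are 4, 5 and 14 counts at 16 HPI, so few reads carry the level. The log2 fold change at 16 HPI was -1.79 (SE 0.381, adjusted p = 0.00155, edgeR).

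Wnt5a, a ligand of beta-catenin-independent signalling and of axon guidance, fell by 0.65 at 16 HPI (SE 0.134, adjusted p = 0.00116, edgeR). It had 4.07, 4.28 and 7.52 normalized CPM in control and 2.84, 2.77 and 4.48 at 16 HPI. Replicate 3 was highest in both groups, which overlapped, and all 3 replicates decreased. An antisense transcript shares 358 exonic bases with Wnt5a. Wnt11 fell by 0.30 (SE 0.100, adjusted p = 0.0339, edgeR), to 8.39, 16.1 and 9.18 normalized CPM, and did not pass without control replicate 1 (-0.23) or without 16 HPI replicate 1 (-0.28) or 3 (-0.24). Nor did it pass with upper-quartile factors, a filter of 10 counts summed over libraries, the 2 groups alone or DESeq2. It shares 364 exonic bases with a pseudogene on the opposite strand. Wnt2b and Wnt3 passed in no comparison.

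Wnt5b, whose promoter windows with a motif are printed above, was below the filter of the main test. It had 0, 2 and 10 counts in control, 1, 2 and 0 at 8 HPI, 8, 27 and 29 at 16 HPI and 5, 20 and 12 at 24 HPI. The 8 HPI libraries lay at or under the 3-count limit of detection, and at 16 HPI the mean was at least 5.63-fold higher than that limit averaged over the 8 HPI libraries. When genes with at least 10 counts summed over all libraries were tested, the log2 fold change at 16 HPI against control was 2.43 (SE 0.465, adjusted p = 0.000304, edgeR). At 24 HPI it was 1.40 (SE 0.519, adjusted p = 0.100, edgeR). With the same filter Lrp5, at 5 to 18 counts in control and 14 to 26 at 16 HPI, had a log2 fold change of 0.93 (SE 0.303, adjusted p = 0.0391, edgeR). These genes are named for lying just under the filter. Each exceeded 1 CPM in 2 libraries, both at 16 HPI. The choice therefore rests on the values that were tested, and these tests are no support for a rise. Wnt4 and Lgr6, which exceeded 1 CPM in no library, had log2 fold changes of -0.66 (adjusted p = 0.402) and 0.28 (adjusted p = 0.782) at 16 HPI by edgeR with the same filter.

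Among the cytoplasmic genes, Axin2 (chr11:108920349-108950783, plus strand), a scaffold of the beta-catenin destruction complex and a widely used target of beta-catenin signalling, had 0.813, 1.70 and 1.49 normalized CPM in control, 0.847, 1.38 and 0.757 at 8 HPI and 2.27, 2.09 and 3.19 at 16 HPI. Its libraries at 16 HPI lay above those of both groups. The log2 fold change at 16 HPI against control was 0.94 (SE 0.252, adjusted p = 0.0100, edgeR), just under 2-fold. It was 0.76 and no longer passed without 16 HPI replicate 3, and was over 2-fold without control replicate 2 (1.04) or 16 HPI replicate 2 (1.21). Axin2 shares 209 exonic bases with an antisense transcript. Dvl1, Dvl2, Dvl3 and Axin1 had log2 fold changes between -0.16 and 0.09 in the comparisons with control, and none passed.

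In the R-spondin arm Lgr4 fell by 0.21 at 16 HPI (SE 0.0547, adjusted p = 0.00691, edgeR), from 51.7, 50.7 and 50.1 to 45.5, 44.3 and 41.9 normalized CPM, with no overlap. Rspo4 and Rspo1, the most abundant genes, had log2 fold changes between -0.11 and 0.16 and passed in none of the comparisons with control. Znrf3 had 4.68, 5.60 and 5.88 normalized CPM in control and 6.47, 8.49 and 6.54 at 16 HPI, a log2 fold change of 0.42 (SE 0.157, adjusted p = 0.0586, edgeR). Lrp6 fell by 0.19 (SE 0.059, adjusted p = 0.0259, edgeR), to 31.1, 30.6 and 33.2 normalized CPM, and did not pass without control replicate 3 (-0.14) or without 16 HPI replicate 1 (-0.17) or 3 (-0.19). Nor did it pass with upper-quartile factors, the 10-count filter, the GC correction, the 2 groups alone or DESeq2. None of the 5 tested inhibitors passed at 16 HPI, and Sfrp2 had a log2 fold change of 0.68 (SE 0.282, adjusted p = 0.0909, edgeR).

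**Figure D3:**
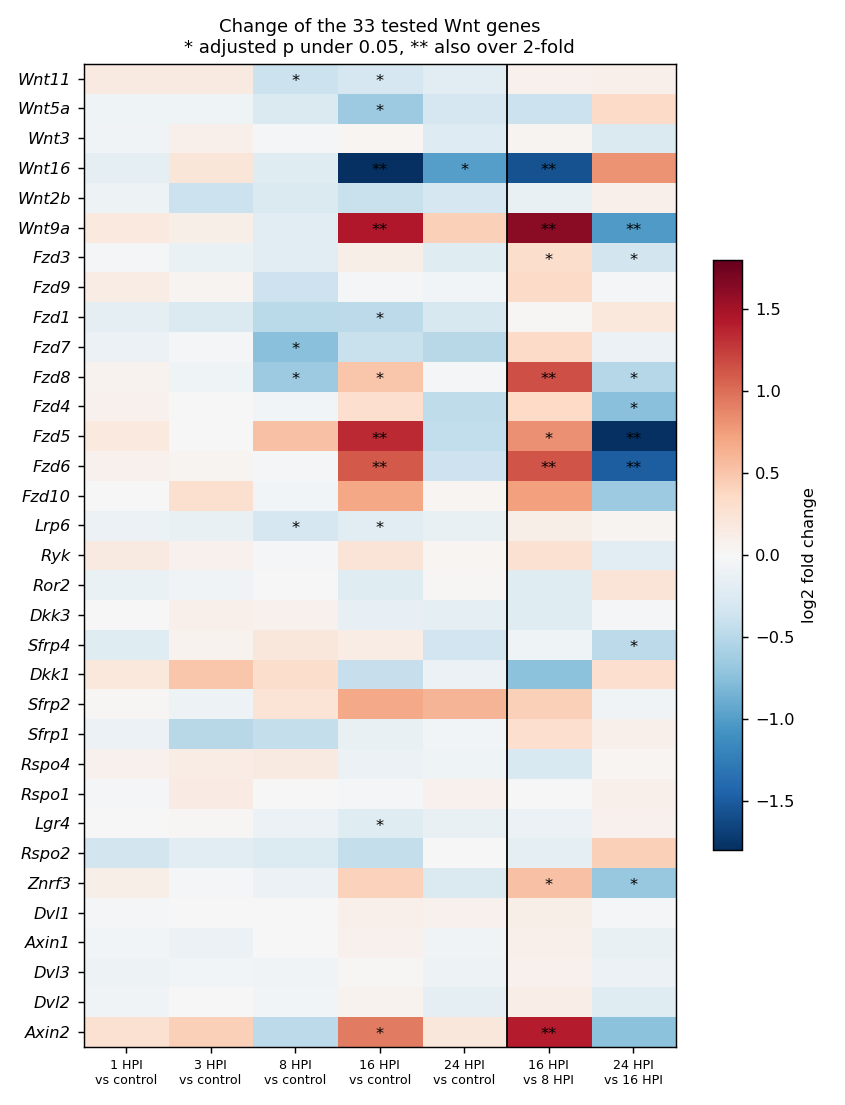
Log2 fold change (colour) of the 33 tested Wnt genes in rows, grouped by role, for the 5 comparisons with control and, right of the line, the 2 steps between injured groups. An asterisk marks an adjusted p under 0.05 and 2 asterisks also a change over 2-fold, as for Fzd5, Fzd6, Wnt9a and Wnt16 at 16 HPI.

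The heat map of log2 fold changes shows that marks gather at 16 HPI and in the steps on either side of it. At 24 HPI none of the 33 Wnt genes was called, where 0.821% of all genes were called, and DESeq2 called 0 as well. By edgeR only Wnt16 passed, against 15.0% of all genes and 9.03% that passed lower, with a log2 fold change of -0.98 (SE 0.324, adjusted p = 0.0437, edgeR). It did not pass when any 1 of the 6 libraries compared was left out, with values between -1.18 and -0.74, nor with DESeq2. Without adjustment 10 of the 33 had p under 0.05, against 28.6% of all genes. Fzd5, Fzd6 and Wnt9a had log2 fold changes of -0.45 (adjusted p = 0.195), -0.37 (adjusted p = 0.377) and 0.43 (adjusted p = 0.437) against control by edgeR.

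The steps between injured groups test the change from 8 to 16 HPI and from 16 to 24 HPI, and share the 16 HPI libraries. From 8 to 16 HPI, 5 Wnt genes were called, where 0.937% of all genes were called, 0.799% higher and 0.138% lower. Wnt9a rose by 1.63 (SE 0.330, adjusted p = 0.00196, edgeR), Axin2 by 1.41 (SE 0.283, adjusted p = 0.00178, edgeR), Fzd8 by 1.15 (SE 0.169, adjusted p = 0.000108, edgeR) and Fzd6 by 1.13 (SE 0.235, adjusted p = 0.00243, edgeR) on the log2 scale. Wnt16 fell by 1.57 (SE 0.403, adjusted p = 0.0106, edgeR), and did not pass without 8 HPI replicate 1 (-1.23) or 16 HPI replicate 1 (-1.22). Fzd5, Znrf3 and Fzd3 also rose, by 0.82, 0.53 and 0.32. Znrf3 did not pass without 8 HPI replicate 2 or 3 or 16 HPI replicate 1 or 2 (0.34 to 0.57), nor Fzd3 without 8 HPI replicate 1 or 3 or 16 HPI replicate 1 (0.28 to 0.32). Together 8 of 33 passed, against 15.2% of all genes, 7 of them higher, against 7.3%, and 1 lower, against 7.88%. Without the replicate term only Fzd8 was called.

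From 16 to 24 HPI, 8 of 33 passed and all 8 fell, against 9.82% of all genes that passed and 6.22% that passed lower. The 3 called were Fzd5 (log2 fold change -1.79, SE 0.190, adjusted p = 5.596e-06, edgeR), Fzd6 (-1.48, SE 0.229, adjusted p = 0.00027, edgeR) and Wnt9a (-1.02, SE 0.282, adjusted p = 0.0243, edgeR), where 0.508% of all genes were called and 0.414% called lower. Wnt9a was not called without 16 HPI replicate 1 (-0.93) or 2 (-0.96) or 24 HPI replicate 1 (-0.91) or 3 (-0.74), nor with DESeq2. Of the 9 tested receptors 5 fell: Fzd4 by 0.76, Fzd8 by 0.52 and Fzd3 by 0.33 in addition to Fzd5 and Fzd6. The others were Znrf3, which fell by 0.68, and Sfrp4, which fell by 0.48. Fzd8 did not pass without replicate 1 or 2 of either group (-0.50 to -0.38), with DESeq2 or with the 2 groups alone. Fzd3 did not without 16 HPI replicate 1 (-0.30) or 24 HPI replicate 2 (-0.22), Znrf3 without 16 HPI replicate 2 (-0.49) or 24 HPI replicate 3 (-0.58), and Sfrp4 without 16 HPI replicate 2 or 24 HPI replicate 2 or 3 (-0.45 to -0.42). The receptors' median was -0.52, and the median of all genes was 0.00464. Axin2 had a log2 fold change of -0.74 (SE 0.240, adjusted p = 0.0564, edgeR).

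Summed over the 10 Fzd genes, the level was 5.71 ± 0.550 RPKM at 8 HPI, 7.99 ± 0.774 RPKM at 16 HPI and 6.08 ± 0.640 RPKM at 24 HPI (SD, n = 3 each). The lowest library at 16 HPI, 7.30 RPKM, lay above the highest at 8 HPI, 6.34 RPKM, and at 24 HPI, 6.75 RPKM, but under the highest control library, 7.35 RPKM.

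**Figure D4:**
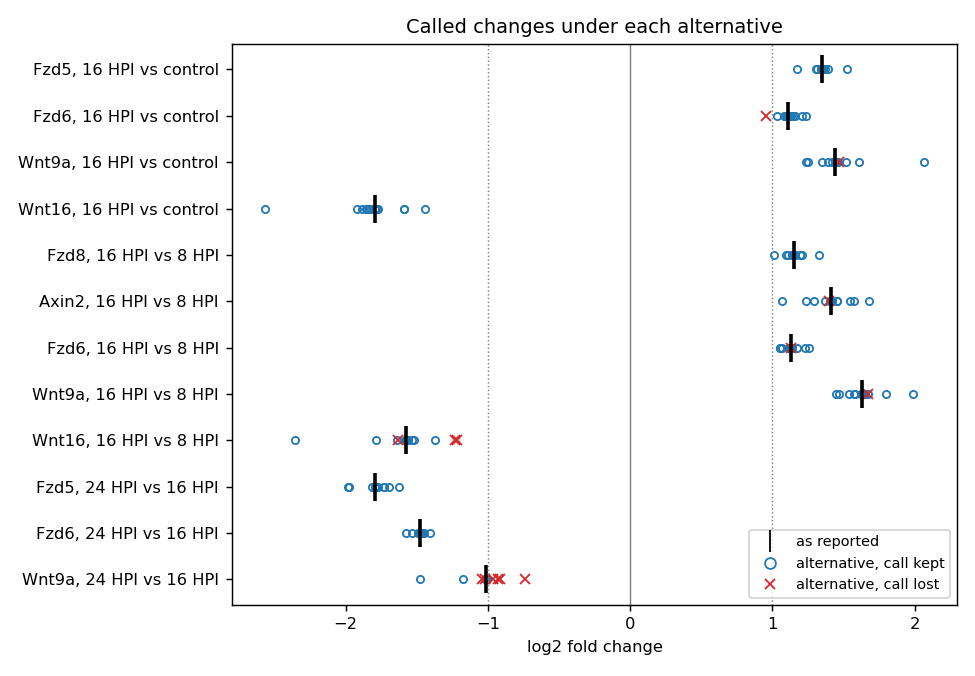
Log2 fold change of each called Wnt gene as reported (black bar) and under every alternative setting or left-out library (circle where the call was kept, cross where it was lost); dotted lines mark a 2-fold change. The signs are the same throughout, and Wnt9a from 16 to 24 HPI lies closest to the 2-fold line.

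The plot of alternatives shows that Fzd5 and Wnt16 at 16 HPI, Fzd5 and Fzd6 from 16 to 24 HPI and Fzd8 from 8 to 16 HPI kept their call under every alternative that tested them. Markers of other cells also differed between groups in part. Fibroblast markers summed to 5.60 to 16.1 normalized CPM at 16 HPI and 4.13 to 11.8 in control, and 1 of 5 tested rose. Myeloid markers summed to 5.40 to 6.06 at 16 HPI and 3.54 to 5.13 in control, and 1 of 2 tested rose. Glial markers summed to 2.66 to 8.17 and 2.29 to 9.49, and none of 4 tested passed. At 8, 16 and 24 HPI the mean sums were 11.2, 10.7 and 11.5 for fibroblast markers. They were 4.8, 5.67 and 6.26 for myeloid and 4.7, 6.22 and 7.7 for glial markers. For sensory neuron markers the mean sums at these times were 11900, 10860 and 11190 normalized CPM. Of the 8 sensory neuron markers 1 fell at 16 HPI. The part of other cells in the Wnt changes was not tested.

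Of 70 further pathway genes, 58 were tested, and at 16 HPI 7 rose and 12 fell against control, 3 and 1 of them over 2-fold. Over all genes tested, 10.7% rose and 11.5% fell at that time, 1.18% and 0.312% over 2-fold. For ligand secretion and inactivation, Trabd2b, an extracellular protease that inactivates Wnt proteins, rose by 1.71 (SE 0.295, adjusted p = 0.00023, edgeR), and Wls, which carries Wnt proteins to the surface, by 0.88 (SE 0.206, adjusted p = 0.00343, edgeR). These were 2 of 3 tested. Wls was higher by 1.11 at 24 HPI as well (SE 0.197, adjusted p = 0.000664, edgeR). Among the other extracellular modulators, Apcdd1, an inhibitor, rose by 1.06 (SE 0.288, adjusted p = 0.0106, edgeR), while Cthrc1 fell by 0.90 and Frzb by 0.42. Apcdd1 averaged 1.33 normalized CPM at 16 HPI and 0.530 to 0.698 in the other groups. It thus met the filter through the group where it is high, and its test is no support for a rise. Of 16 genes of beta-catenin and its destruction complex none rose and 4 fell, against 10.7% and 11.5% of all genes, led by Apc, which fell by 0.37, Btrc by 0.26 and Tnks by 0.21. Ctnnb1 itself had a log2 fold change of -0.08 (SE 0.0459, adjusted p = 0.224, edgeR).

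Among 12 nuclear cofactors 2 rose and 2 fell at 16 HPI. Beside this list and those that follow, 10.7% of all genes rose and 11.5% fell at that time. Tle3, a co-repressor of the Tcf factors, rose by 1.11 (SE 0.0903, adjusted p = 5.387e-08, edgeR), and Pygo1, a co-activator of beta-catenin, by 0.61. Tle4, another co-repressor, fell by 0.25. In planar cell polarity 1 of 11 tested genes rose, Prickle1 by 0.46, and 3 fell, with Celsr2 by 0.54 and Vangl1 by 0.35. Among 8 tested common targets of beta-catenin outside the 60, Nkd1, a feedback inhibitor, rose by 0.59 (SE 0.128, adjusted p = 0.00197, edgeR) and Bmp4 fell from 0.682 to 0.240 normalized CPM on average, both low levels (SE 0.426 on the log2 scale, adjusted p = 0.0136, edgeR). The other 6 did not pass.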

How the data were processed

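The authors deposited raw counts of reads per gene for each of the 18 libraries, without normalization. Per the labels, rRNA was depleted and cDNA made with SMARTer. The study's methods name cutadapt, STAR, GENCODE vM20 and featureCounts, the labels name HTSeq with mm10, and the closing entries of each file carry htseq-count's names; the strand setting is not given in the sources used here. Gene names came from GENCODE vM21, which matched 47224 of 47643 identifiers. Counts on no gene, 25.2% to 33.2% of all counts, were left out. No pair of libraries was identical.

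Counts were fitted with edgeR 4.0.16 (R 4.3.3; TMM; quasi-likelihood, two-sided) over all libraries, with terms for group and replicate number. SE is the log2 fold change over the square root of F. Nothing in the labels says which cultures were separate dissections, so p-values measure the spread between these samples. The replicate numbers pair the samples: deviations from group means correlated at 0.484 to 0.765 in all 45 pairs with the same number and at -0.577 to -0.0423 in the 90 others, and the study's methods correct for batch. Deviations within a group cancel out, so the negative average of the 90 others follows from the first range. It is no separate evidence of pairing. The scripts were tested on simulated data. The limit of detection of 3 counts a library covers counting error only.

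The members, lists and tests were chosen with earlier results of these data known. Called members and those with an adjusted p under 0.05 are described, grouped by time and role. Of other pathway genes, up to 3 per list that passed at a time are named. The promoters were printed by a rule chosen after their motifs were seen, since the planned rule (called genes with a motif) found none. Planned searches of protein sequence were not made here. Alternatives were RLE and upper-quartile factors, DESeq2 1.42.0, a filter at 10 counts summed over libraries, a filter at 1 CPM in each of the 18, a fit with no replicate term, GC and length offsets (mgcv 1.9.3), rRNA and mitochondrial genes left out, the 2 groups alone and each library left out.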

Additional observations from a re-analysis of the deposited data

Results flagged for a closer look

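The change against control differed between time points for 6 Wnt genes by the test of the step itself. Between 8 and 16 HPI the log2 fold change was 1.63 for Wnt9a, 1.41 for Axin2, 1.15 for Fzd8, 1.13 for Fzd6 and -1.57 for Wnt16. Between 16 and 24 HPI it was -1.79 for Fzd5, -1.48 for Fzd6 and -1.02 for Wnt9a. Each was in the same direction in all 3 replicates.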

How the results depend on the processing

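With 32 Wnt changes that passed, 0 reversed under any alternative and 5 were kept under all that tested them. A called change counted as lost when it was no longer called, and any other change when it no longer passed. RLE factors and leaving out rRNA and mitochondrial genes lost 0 of 32, the GC correction 1, upper-quartile factors and the 10-count filter 3 each, DESeq2's Wald test and the 2 groups alone 6 each. With the replicate block left out, 26 of 32 were lost: in this unpaired fit the counts called were 3 at 16 HPI, 1 from 8 to 16 HPI (Fzd8), 2 from 16 to 24 HPI and 4 over the time course (Fzd5, Fzd6, Fzd8, Wnt16), and 0 at 1, 3, 8 and 24 HPI. The filter of 1 CPM in all 18 libraries kept 21 of the 33 genes and removed Fzd5, Fzd6, Wnt9a and Wnt16, among others, which left 0 called at 16 HPI, 1 from 8 to 16 HPI, 0 from 16 to 24 HPI and 9 over the time course. At 24 HPI 1 gene, Wnt16, was called under the GC correction and with the 2 groups alone. Shares of all genes under the alternatives and left-out libraries are not given, so the counts describe only how stable the Wnt calls are.

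Leaving out each library gave 0 to 0 called at 1 and at 3 HPI, 0 to 1 at 8 HPI (Fzd7, with -1.02 without 8 HPI replicate 1), 4 to 5 at 16 HPI, 0 to 0 at 24 HPI, 4 to 5 from 8 to 16 HPI and 2 to 3 from 16 to 24 HPI. Without control replicate 2, Fzd6 was not called at 16 HPI and its log2 fold change was 0.96. The report gives the other library-dependent calls beside their values. Over the time course, leaving out a whole replicate gave 6 to 8. Counts of 4 to 14 for Wnt16 at 16 HPI and of 9 to 31 for Wnt9a in control limit the precision of the ligands.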

Other observations

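Of the 33 tested Wnt genes, 15 had their highest group mean at 16 HPI, where 22.0% of all tested genes had theirs, and 10 had their lowest at 8 HPI, against 17.1% of all tested genes. Sfrp5, an inhibitor under the filter, had 8, 1 and 10 counts in control, 2, 1 and 2 at 8 HPI and 10, 4 and 23 at 24 HPI. With the filter of 10 counts summed over libraries it passed the test of any change over the time course (adjusted p = 0.0264 by edgeR's quasi-likelihood test). It did not pass against control at 8 HPI (adjusted p = 0.183, edgeR) or 24 HPI (adjusted p = 0.222, edgeR). Sfrp5 exceeded 1 CPM in 1 library and is named for this result, which is no support for a change.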
